A study of Homo sapiens with 12 samples.

Results

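CLK1, CLK2, CLK3 and CLK4, the CDC2-like kinases, and TRA2A and TRA2B, the human homologues of fly transformer-2, were followed in Ewing sarcoma cells in which transcription had been blocked. These 6 genes were taken by symbol, as genes known for detained introns or poison exons. No measured value entered that rule, though earlier results of these data were known when it was made. All 6 were found among the 26334 symbols of the count table, and all 6 passed the filter of a mean of at least 10 counts that left 12032 genes to be tested. The cells, labelled shA673-1c, are a single clone of A673, an established Ewing sarcoma line, that is known to carry an inducible hairpin against the fusion oncogene EWSR1-FLI1. They were grown under Blasticidin and zeocyn selection, and the labels name no inducer of the hairpin. All samples were treated with 5 µM actinomycin D, an intercalator that stops RNA polymerases, and were taken after 0, 1, 2 or 4 h with 3 replicates per time, so that the 0 h samples are the control. Poly(A) RNA was sequenced in strand-specific libraries, 12 in all.

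CLK proteins are dual-specificity kinases that phosphorylate the arginine- and serine-rich (RS) domains of SR proteins, the family of splicing factors that mark exons for the spliceosome, and thereby release them from nuclear speckles. TRA2 proteins bind GA-rich exonic enhancers through a single RNA recognition motif flanked by RS domains and promote inclusion of the exon. Genes of both families control themselves through splicing: CLK1 and CLK4 transcripts are known for introns that are kept in otherwise mature polyadenylated RNA held in the nucleus (detained introns), and TRA2A and TRA2B for poison exons, whose stop codons send the transcript to nonsense-mediated decay. A count per gene adds up spliced, intron-containing and poison-exon transcripts, and these were not separated here.

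CLKs are also called LAMMER kinases after a motif of their catalytic domain. The coding stretch that encodes it is shown to compare the sequences of the 4 paralogues at this motif only. The stretches come from the canonical transcripts of GENCODE version 44 and run 5′ to 3′. Capitals mark the codons of the motif itself, which in CLK3 encode LVMMEK in place of LAMMER.
CLK1: catTTAGCAATGATGGAAAGGattcttgga
CLK2: catCTAGCCATGATGGAAAGGatcttgggt
CLK3: cacCTGGTGATGATGGAGAAGatcctaggg
CLK4: cacCTGGCAATGATGGAACGAatattagga
Over these 30 bases CLK2 differed from CLK1 at 6 positions, CLK4 at 8 and CLK3 at 10. In the TRA2 pair, the matching stretch is the RNP1 element, the core of the RNA recognition motif, with the codon that follows it, all in capitals.
TRA2A: CGAGGATTTGCTTTTGTGTATTTTGAG
TRA2B: AGAGGATTTGCCTTTGTATATTTTGAA
These 27 bases differed at 4 positions.

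Whole coding sequences were 77.6% identical between CLK1 and CLK4, 68.8% between CLK2 and CLK3, and 68.6% between TRA2A and TRA2B. CLK1 and CLK2 were 63.5% identical, although CLK2 was closer to CLK1 than CLK4 was in the motif stretch. The longest identical run in any pair was 34 bases, between CLK1 and CLK4. Of all stretches of 50 bases in the canonical transcripts, 0% of those of CLK1, CLK4, TRA2A and TRA2B occurred in a transcript of another gene. For CLK2 the share was 6.13%, all in its pseudogene CLK2P1, which held 0 to 2 counts per library. For CLK3 the share was 3.32%, all in 1 other gene entry. How reads with several matches were counted is not given in the sources used here.

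GENCODE lists both a retained-intron transcript and a transcript marked for nonsense-mediated decay for 5 of the 6 genes, all but CLK2, against 37.8% of 11213 tested genes with a GENCODE symbol. The genes were taken as known for such forms, so this difference follows in part from the choice and is not a result. CLK1, CLK3 and TRA2B have 8 retained-intron transcripts each, CLK4 has 7 and TRA2A has 4. For each of the 5 genes, the 24 coding bases before the premature stop are shown, with the stop codon in capitals, for the decay-marked transcript whose stop lies farthest upstream of its last exon junction. They show where the reading frame of the unproductive form ends.
CLK1: catgggatgaaattgttgatacttTAG
CLK3: ccagagggaagtctcaggttgcccTGA
CLK4: catcaccagtttaaagaatctgatTGA
TRA2A: aaattgaacagaagattggtcagaTAG
TRA2B: gagtatttgaagctcaggaataagTGA
The stop came after 136 codons in CLK1 (484 in the full frame), 152 in CLK3 (490), 53 in CLK4 (481), 59 in TRA2A (282) and 38 in TRA2B (288). It lay 809, 740, 2046, 959 and 1015 bases before the last junction, in the same order. Whether these forms were present in the cells cannot be read from counts per gene.

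Library totals ranged from 9147018 to 11194705 counts, and replicates differed by more than sampling noise in every pair (a chi-square of 3.07 to 8.15 for each degree of freedom). MYC, a short-lived transcript, fell from 135 ± 11.5 to 8.37 ± 2.76 CPM (counts scaled to library size with edgeR's TMM factors; mean ± SD, n = 3) between 0 and 4 h. Of 6 Ewing sarcoma markers, 5 were tested, among them NR0B1, a target of the EWSR1-FLI1 fusion, at 38.2 ± 5.05 CPM at 0 h. CD99 was listed at 0 in all 12 libraries, which is not read as absence, since the counting rules are not given. Of 4 markers of other cell types, the leukocyte marker PTPRC, the endothelial marker PECAM1 and the epithelial marker EPCAM were below the count filter, and the mesenchymal marker PDGFRB was at 178 ± 25.8 CPM at 0 h. The table holds no spike-in, so a value above 0 means that a transcript was lost more slowly than the average that sets the scale, or was made. In bulk samples, fewer cells and less RNA per cell cannot be told apart. The labels call the replicates biological, and libraries that share a replicate number went up and down together, so values with that number as a block are given where they change a call.

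Compared per length, as CPM per kilobase of the canonical transcript, TRA2B was the most abundant of the 6 genes at 0 h, at 77.0 ± 8.26 (mean ± SD, n = 3, here and for the levels that follow). TRA2A followed at 44.03 ± 4.66. The kinases were lower, with 18.7 ± 0.615 for CLK3, 16.4 ± 1.31 for CLK1, 14.9 ± 1.33 for CLK2 and 5.33 ± 0.538 for CLK4. The replicates of CLK1 and CLK2 overlapped and those of the other neighbours in this order did not. At 4 h the order among the kinases was CLK2 at 20.0 ± 1.95, CLK3 at 10.3 ± 2.46, CLK1 at 10.2 ± 2.16 and CLK4 at 4.69 ± 0.209, and the replicates of CLK3 and CLK1 overlapped. CLK2 moved from the fifth place of the 6 genes to the third. The TRA2 genes kept the first and second places, at 69.6 ± 5.32 and 49.97 ± 4.58. These levels rest on the length of 1 transcript per gene, and a gene with other transcripts in use would have another level.

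CLK1 and CLK3 fell after the block of transcription, CLK2 rose relative to the scaling, and CLK4 had no call over the whole course under the TMM scaling. Under TMM, TRA2A and TRA2B changed little and in opposite directions, neither with a call unless the block was used. Relative to GAPDH plus ACTB both fell. In edgeR's quasi-likelihood fit of a straight line in time, 2 of the 6 genes had a slope below 0 at an adjusted p below 0.05, against 32.1% of all tested genes, and 1 had a slope above 0, against 30.7%. Slopes had a median of -0.032 log2 per hour over the 6 genes and of 0.0093 over all tested genes. In the fit blocked on replicate number, TRA2B joined the falling genes (3 of 6, against 34.8%) and TRA2A the rising ones (2 of 6, against 36.2%). Calls on slopes were thus about as common in these genes as in the table as a whole.

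**Figure D1:**
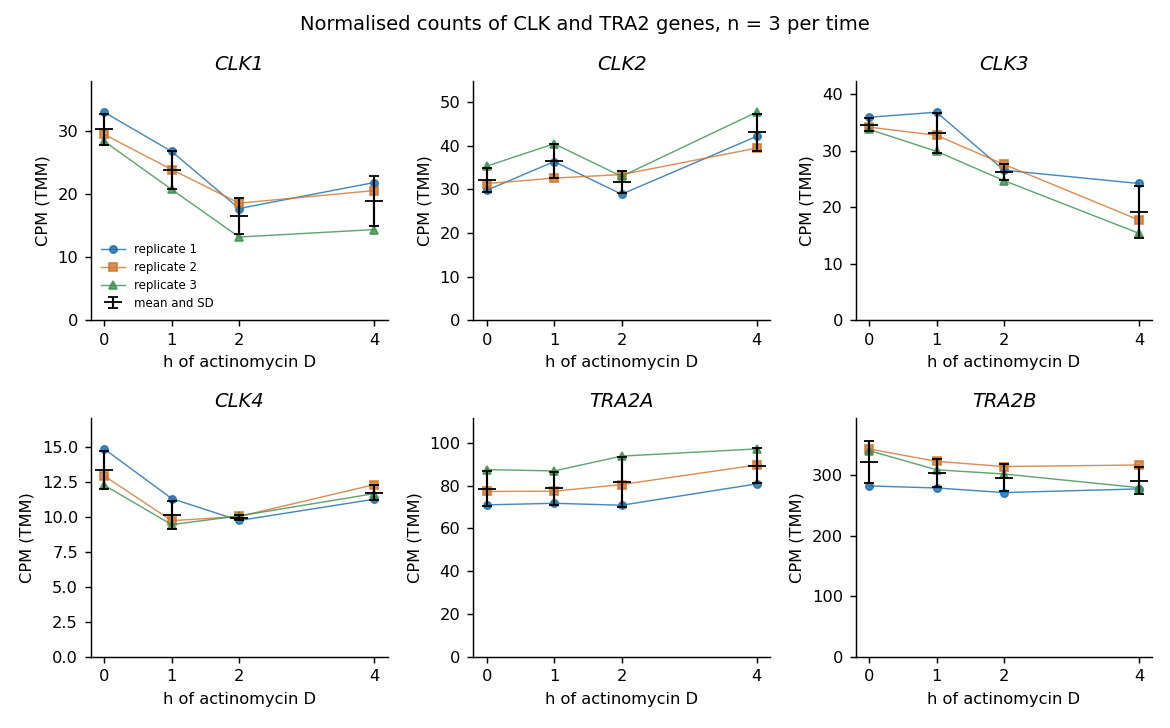
Normalised counts (CPM, TMM-scaled, y axis from 0) of the 6 genes against hours of actinomycin D; coloured points and lines are the 3 replicates, and black marks the mean and SD. CLK3 went down to 15.4 to 24.2 CPM at 4 h and CLK2 up to 39.5 to 47.7 CPM, while the libraries of different times overlapped for TRA2A and for TRA2B.

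CLK1, on the minus strand of chromosome 2 of GRCh38 (chr2:200853009-200864691), is the kinase best known for shuttling SR proteins between speckles and nucleoplasm. Its level was 32.9, 29.4 and 28.3 CPM in replicates 1, 2 and 3 at 0 h, and 26.7, 23.9 and 20.7 CPM at 1 h. At 2 h the values were 17.7, 18.5 and 13.2 CPM, and at 4 h they were 21.8, 20.5 and 14.3 CPM. Every library at 2 and 4 h was below every library at 0 h, and each replicate was higher at 4 h than at 2 h, though the groups at 2 and 4 h overlapped. The log2 change from 0 to 4 h was -0.68 (SE 0.16, adjusted p = 0.00194, edgeR), and the slope was -0.17 log2 per hour (SE 0.050, adjusted p = 0.00602, edgeR). Read as an exponential loss, this slope is a half-life of 5.73 h relative to the TMM scaling. The value depended on the times and the scale. With 0, 1 and 2 h only, the slope was -0.44 (adjusted p = 3.07e-04, edgeR), or 2.30 h. With 1, 2 and 4 h only, it was -0.087 and past no threshold (adjusted p = 0.298, edgeR). Relative to GAPDH plus ACTB it was -0.31 (adjusted p = 5.09e-06, edgeR), or 3.20 h.

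CLK3, on the plus strand of chromosome 15 (chr15:74598500-74645414), fell most steadily. It was at 35.9, 34.1 and 33.8 CPM at 0 h and at 36.8, 32.7 and 29.9 CPM at 1 h. The values were 26.5, 27.5 and 24.7 CPM at 2 h and 24.2, 17.7 and 15.4 CPM at 4 h. The 0 and 1 h groups overlapped, and from there each later group lay below the earlier one without overlap. The log2 change from 0 to 4 h was -0.86 (SE 0.13, adjusted p = 6.95e-05, edgeR), and the slope was -0.23 log2 per hour (SE 0.033, adjusted p = 1.55e-05, edgeR). Relative to the TMM scaling, its half-life was thus 4.41 h. This slope was past the threshold in every alternative run. Exons of CLK3 overlap those of EDC3, an mRNA decapping factor on the opposite strand, over 3.56% of their bases, and an lncRNA over 2.43%. EDC3 itself had a slope of -0.051 (adjusted p = 0.0341, edgeR). Whether the counting used strand is not given in the sources used here, so the part of EDC3 reads in the CLK3 counts was not tested.

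CLK2, on the minus strand of chromosome 1 (chr1:155262868-155278491), is the member with neither a retained-intron nor a decay-marked transcript in GENCODE. It was at 29.8, 31.4 and 35.3 CPM at 0 h and at 36.4, 32.6 and 40.5 CPM at 1 h. At 2 h it was at 28.9, 33.4 and 33.0 CPM, and at 4 h at 42.2, 39.5 and 47.7 CPM. The 4 h libraries were all above those of 0 and 2 h, and the other times overlapped. The log2 change from 0 to 4 h was 0.42 (SE 0.10, adjusted p = 0.00302, edgeR), and the slope was 0.093 log2 per hour (SE 0.030, adjusted p = 0.0127, edgeR). The rise depended on the scale. With library totals in place of TMM the slope was 0.054 and no longer past the threshold (adjusted p = 0.170, edgeR), and relative to GAPDH plus ACTB it was -0.046 (adjusted p = 0.292, edgeR). It also lost its call without replicate 2 (adjusted p = 0.0669, edgeR).

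CLK4, on the minus strand of chromosome 5 (chr5:178602664-178630615), is the closest paralogue of CLK1 and had the fewest counts, 95 to 151 per library. It was at 14.8, 12.9 and 12.3 CPM at 0 h and at 11.3, 9.72 and 9.44 CPM at 1 h. The values were 9.74, 10.0 and 10.1 CPM at 2 h and 11.3, 12.3 and 11.7 CPM at 4 h. All libraries at 1 and 2 h were below those at 0 h, and those at 4 h overlapped 0 h and lay above 2 h. The slope was -0.030 log2 per hour (SE 0.039, adjusted p = 0.526, edgeR), and the log2 change from 0 to 4 h was -0.18 (SE 0.12, adjusted p = 0.190, edgeR). That change was -0.071 without replicate 1 (adjusted p = 0.687, edgeR), and it was past the threshold with library totals, at -0.33 (adjusted p = 0.0258, edgeR), and relative to GAPDH plus ACTB, at -0.73 (adjusted p = 1.34e-04, edgeR). With 0, 1 and 2 h only, the slope was -0.22 (adjusted p = 0.0300, edgeR), and with 1, 2 and 4 h only it was 0.077 (adjusted p = 0.129, edgeR). Exons of CLK4 share 2.03% of their bases with RN7SKP70, a copy of the 7SK RNA on the same strand, whose reads could not be told apart by strand.

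TRA2A, on the minus strand of chromosome 7 (chr7:23504780-23532041), was at 71.0, 77.3 and 87.5 CPM at 0 h and at 71.7, 77.4 and 86.9 CPM at 1 h. It was at 70.8, 80.5 and 93.8 CPM at 2 h and at 80.8, 89.6 and 97.2 CPM at 4 h. Replicate 1 was lowest and replicate 3 highest at every time, and all groups overlapped, but each replicate was higher at 4 h than at 0 h. The slope was 0.048 log2 per hour (SE 0.025, adjusted p = 0.102, edgeR), and with the replicate block it was 0.049 (SE 0.012, adjusted p = 0.00146, edgeR). Relative to GAPDH plus ACTB it was -0.089 (adjusted p = 0.0373, edgeR), the opposite direction.

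TRA2B, on the minus strand of chromosome 3 (chr3:185914558-185938103), had 2338 to 3831 counts per library. It was at 282, 343 and 340.3 CPM at 0 h, and at 279, 323 and 309 CPM at 1 h. It was at 271, 314 and 302 CPM at 2 h and at 277, 317 and 279 CPM at 4 h. The groups overlapped, and each replicate was lower at 4 h than at 0 h, by 0.025, 0.12 and 0.29 on the log2 scale. The slope was -0.034 log2 per hour (SE 0.020, adjusted p = 0.155, edgeR), and with the block it was -0.033 (SE 0.011, adjusted p = 0.0106, edgeR), or 30.1 h when read as a half-life. With library totals the slope was -0.073 (adjusted p = 0.00459, edgeR). Without replicate 1 it was -0.046 (adjusted p = 0.0441, edgeR), without replicate 2 -0.038 (adjusted p = 0.170, edgeR) and without replicate 3 -0.021 (adjusted p = 0.466, edgeR).

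**Figure D2:**
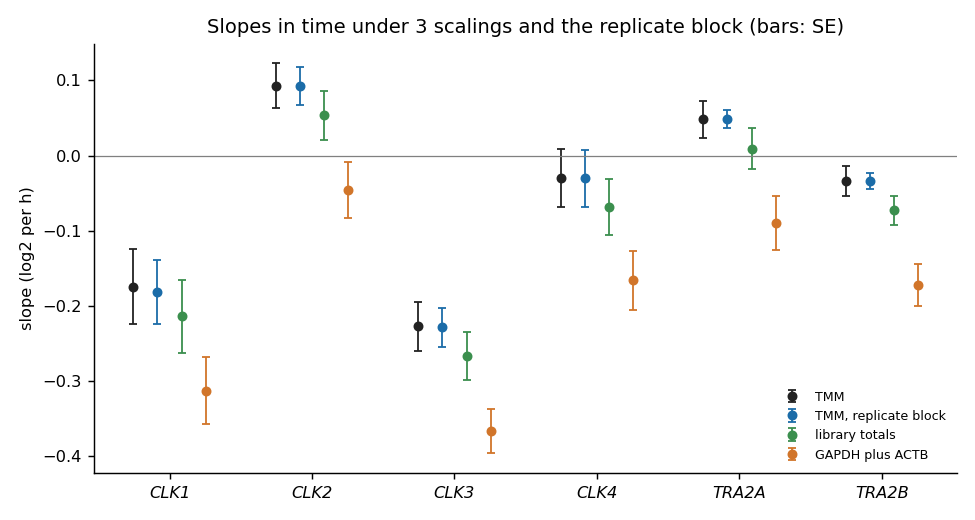
Slopes in log2 per hour (y axis, bars: SE) of the 6 genes under the TMM scaling without and with the replicate block, library totals, and scaling to GAPDH plus ACTB. CLK1 and CLK3 were below 0 under all of them, CLK2 and TRA2A were below 0 relative to GAPDH plus ACTB only, and every gene moved down by a similar amount from one scaling to the next.

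The scale moved all genes together. Library totals lowered the median slope by 0.039 log2 per hour and GAPDH plus ACTB by 0.14, since GAPDH and ACTB themselves had slopes of 0.15 and 0.12 under TMM. Relative to GAPDH plus ACTB, 5 of the 6 genes fell, against 64.2% of all tested genes, with CLK4 at -0.17 (adjusted p = 0.00114, edgeR) and TRA2B at -0.17 (adjusted p = 2.9e-05, edgeR) besides CLK1, CLK3 and TRA2A. The difference between 2 genes does not depend on the scale.

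Over the whole interval, from 0 to 4 h, 2 of the 6 genes were called lower (31.6% of all tested genes) and 1 higher (28.7%). With the block these were 3 (36%) and 2 (36.8%), TRA2B and TRA2A being added with log2 changes of -0.14 (adjusted p = 9.53e-04, edgeR) and 0.18 (adjusted p = 0.00116, edgeR). The median log2 change was -0.16 for the 6 genes and 0.028 for all tested genes.

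The sampling intervals showed when each gene moved. Changes are given per interval and not per hour, and the last interval lasts 2 h, the others 1 h. Neighbouring intervals share libraries, so a high value at 1 time raises the interval that ends there and lowers the one that starts there. From 0 to 1 h, 0 of the 6 genes were called lower (2.24% of all genes) or higher (0.349%). Unadjusted p-values were below 0.05 for CLK1 (0.0392) and CLK4 (0.00447) in edgeR's fit, and DESeq2 called neither. With the block both were called lower, against 10.5% of all genes, and 0 of the 6 higher, against 6.18%. The drop of CLK4 was nearly the same in each replicate, at -0.39, -0.41 and -0.38 on the log2 scale (adjusted p = 0.0112 with the block, edgeR). That of CLK1 was -0.30, -0.30 and -0.45 (adjusted p = 0.00280 with the block, edgeR).

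From 1 to 2 h, CLK1 was the 1 gene called lower (12.5% of all genes), by 0.53 on the log2 scale (SE 0.16, adjusted p = 0.0373, edgeR), and this call was lost without replicate 1 or without replicate 2. edgeR and DESeq2 called 0 of 6 higher (3.76%), and 0 of the 6 were higher at an unadjusted p under 0.05. With the block, CLK3 with a log2 change of -0.33 (adjusted p = 0.00179, edgeR) and CLK2 with -0.20 (adjusted p = 0.0284, edgeR) were also called lower (3 of 6, against 20.7%), and 0 of 6 higher (17%). CLK2 fell in replicates 1 and 3, by 0.33 and 0.29, and was 0.036 higher in replicate 2.

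From 2 to 4 h, CLK3 was called lower, with a log2 change of -0.46 (SE 0.14, adjusted p = 0.0193, edgeR; 18.3% of all genes), and CLK2 higher, with 0.44 (SE 0.10, adjusted p = 0.00603, edgeR; 12%). CLK3 lost its call without replicate 2 or without replicate 3, and CLK2 lost its call without replicate 1. With the block, TRA2A was also called higher, with 0.13 (adjusted p = 0.0269, edgeR). That made 2 of 6 higher, against 25.3%, and 1 of 6 lower, against 25.3%. CLK4 was higher at 4 h than at 2 h in each replicate, by 0.21, 0.29 and 0.21, without a call (adjusted p = 0.148, or 0.0815 with the block, edgeR). CLK1 was higher in each replicate too, by 0.30, 0.15 and 0.12, again without a call (adjusted p = 0.392, or 0.0947 with the block, edgeR).

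**Figure D3:**
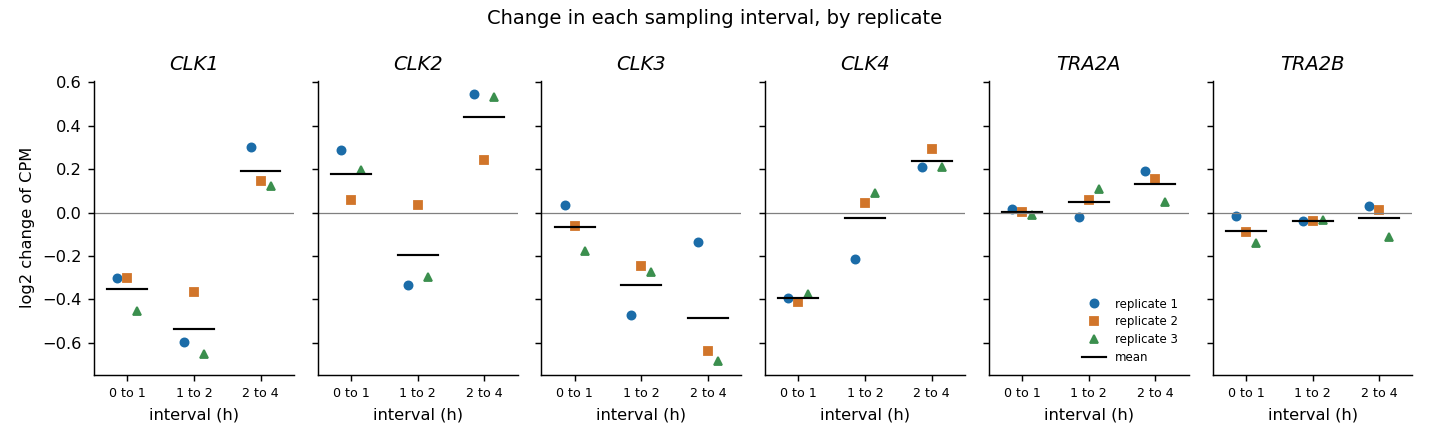
Log2 change of CPM (y axis) between successive sampling times for each gene; points are replicates and bars their means. CLK4 dropped by about the same amount in the 3 replicates in the first hour. It was higher in all of them from 2 to 4 h. The mean change of CLK3 was -0.068, -0.33 and -0.49 in turn, though replicate 1 did not follow this order. The last interval lasts 2 h and the others 1 h, so these changes are not rates and show no faster loss per hour at the end.

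A test of whether the 4 times depart from a straight line found 0 of the 6 genes past the threshold (2.7% of all tested genes; DESeq2's likelihood ratio test also called 0). Unadjusted p-values were below 0.05 for CLK4 (0.00455), CLK1 (0.00732) and CLK2 (0.0301) in edgeR's fit. With the block these 3 genes were called (17.2% of all genes), with adjusted p = 7.37e-05 for CLK1, 0.00719 for CLK2 and 0.00894 for CLK4 (edgeR). For CLK1, CLK2 and CLK4, 1 slope is thus a summary of a course that was not straight in the blocked fit. CLK3 had an adjusted p of 0.882 without and 0.298 with the block (edgeR).

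The 2 members of a paralogue pair can be compared within each library as the ratio of their counts, which no scaling can move. The times were permuted within each replicate number (exact permutation test, two-sided, all 13824 arrangements), and p-values were adjusted over the 3 pairs compared. CLK2 to CLK3 changed most. The ratio was 0.830, 0.918 and 1.05 at 0 h and 0.990, 0.997 and 1.36 at 1 h. It was 1.09, 1.21 and 1.34 at 2 h and 1.75, 2.23 and 3.11 at 4 h, so all libraries at 4 h lay above all earlier ones. The ratio rose by 2.47-fold from 0 to 4 h (log2 change 1.31 ± 0.25, mean ± SD over 3 replicates), a slope of 0.33 log2 per hour (exact permutation p = 1.45e-04, adjusted p = 2.17e-04).

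The TRA2A to TRA2B ratio was 0.252, 0.225 and 0.257 at 0 h and 0.258, 0.240 and 0.282 at 1 h. It was 0.261, 0.256 and 0.311 at 2 h and 0.292, 0.283 and 0.348 at 4 h, with no overlap between 0 and 4 h. Its slope was 0.082 log2 per hour, at 0.053, 0.082 and 0.11 in replicates 1, 2 and 3 (exact permutation p = 7.23e-05, the smallest that these arrangements can give, adjusted p = 2.17e-04). TRA2A thus gained on TRA2B by 1.25-fold within 4 h.

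The CLK1 to CLK4 ratio was 2.22, 2.28 and 2.31 at 0 h and 2.36, 2.45 and 2.19 at 1 h. It was 1.82, 1.85 and 1.31 at 2 h and 1.94, 1.67 and 1.23 at 4 h. The 0 and 1 h libraries were all above those of 2 and 4 h, and replicate 3 was lowest from 2 h on. The slope was -0.15 log2 per hour, at -0.066, -0.13 and -0.25 in the replicates (exact permutation p = 0.00434, adjusted p = 0.00434). With 1, 2 and 4 h only it was -0.16 and no longer past the threshold (exact permutation test, adjusted p = 0.0509).

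**Figure D4:**
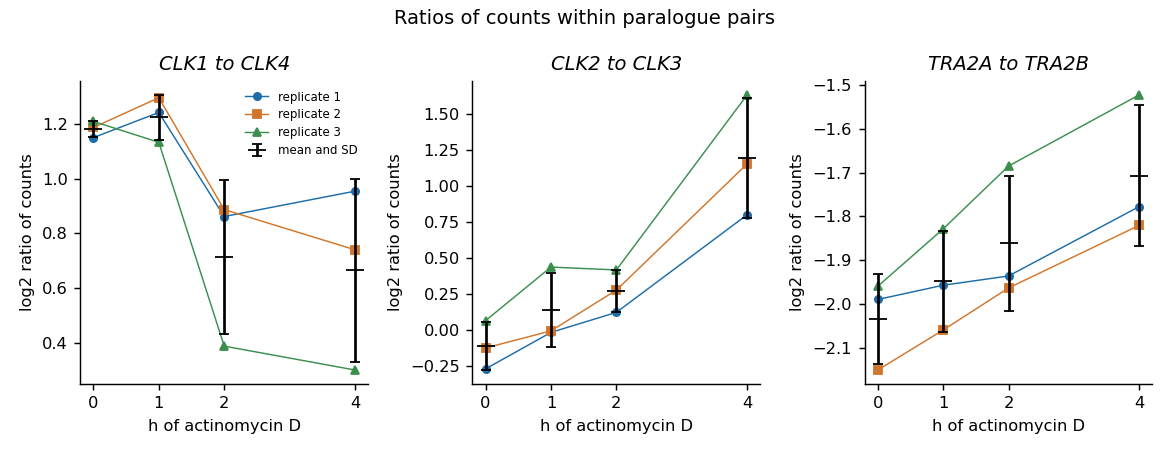
Log2 ratio of raw counts (y axis) of CLK1 to CLK4, CLK2 to CLK3 and TRA2A to TRA2B against hours of actinomycin D; lines are replicates and black marks the mean and SD. CLK2 gained on CLK3 in all replicates, TRA2A gained on TRA2B, and the CLK1 to CLK4 ratio was lower at 2 and 4 h than at 0 and 1 h in all replicates.

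Other kinases of RS domains and their relatives were taken from a fixed list of 13, of which 11 were tested (SRPK3 and HIPK4 were not). Of these, 5 had a slope below 0 past the threshold (32.1% of all tested genes) and 1 above (30.7%), with a median of -0.081 log2 per hour. With the block 6 fell and 1 rose (34.8% and 36.2% of all tested genes). The steepest falls were those of DYRK1A (slope -0.52, adjusted p = 8.14e-07, edgeR) and DYRK3 (slope -0.48, adjusted p = 6.18e-08, edgeR), dual-specificity kinases that act on speckle and condensate proteins, beside -0.23 for CLK3. SRPK1, the cytoplasmic SR protein kinase that primes these proteins for nuclear import, had a slope of 0.036 (adjusted p = 0.0245, edgeR), which was -0.0035 with library totals and -0.10 relative to GAPDH plus ACTB.

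The 12 SR proteins, the substrates of CLKs, were all tested. By slope 3 fell, 2 rose (32.1% and 30.7% of all tested genes) and 7 had no call, with a median of -0.041. In the blocked fit 6 fell and 2 rose (34.8% and 36.2% of all tested genes). SRSF5 (slope -0.18, adjusted p = 1.26e-05, edgeR) and SRSF4 (slope -0.16, adjusted p = 3.45e-06, edgeR) had the lowest slopes, beside -0.17 for CLK1. SRSF9 and SRSF11 rose, with slopes of 0.069 and 0.068, and both were below 0 relative to GAPDH plus ACTB. Of 18 RS-domain coactivators and partners of TRA2 proteins, 7 fell and 3 rose (32.1% and 30.7% of all tested genes), with a median of -0.031. In the blocked fit 7 fell and 4 rose (34.8% and 36.2%). SFSWAP, an RS-domain regulator that acts on its own splicing, had the lowest slope (-0.25, adjusted p = 2.41e-06, edgeR). PNN, a speckle protein, had a slope of -0.11 (adjusted p = 7.53e-04, edgeR). SRRM2, a scaffold of speckles (slope 0.11), and U2AF2, which binds the polypyrimidine tract (slope 0.098), rose under TMM and were below 0 relative to GAPDH plus ACTB.

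Of 14 factors of nonsense-mediated decay and the exon junction complex, 2 fell and 5 rose (32.1% and 30.7% of all tested genes), with a median of 0.030. With the block 2 fell and 7 rose (34.8% and 36.2%). SMG8, a regulator of the SMG1 kinase, had the lowest slope (-0.59, adjusted p = 3.22e-08, edgeR), and UPF2, which bridges UPF1 and the junction complex, had -0.060 (adjusted p = 0.00318, edgeR). UPF3A (slope 0.17, adjusted p = 0.00162, edgeR) and SMG5 (slope 0.15, adjusted p = 4.19e-07, edgeR) rose. Of 3 other genes known for detained introns, MAT2A, the synthetase of S-adenosylmethionine, fell (slope -0.22, adjusted p = 6.70e-04, edgeR), NXF1, the mRNA export receptor, had a slope of -0.046 (adjusted p = 0.0391, edgeR), and OGT had no call. Lists moved with the scale: with library totals 8 of the 11 kinases, 7 of the 12 SR proteins, 12 of the 18 coactivators and 3 of the 14 decay factors fell, against 39.1% of all tested genes. Relative to GAPDH plus ACTB 10, 12, 16 and 12 of them fell, against 64.2%, and 0 rose, against 0.931%.

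**Figure D5:**
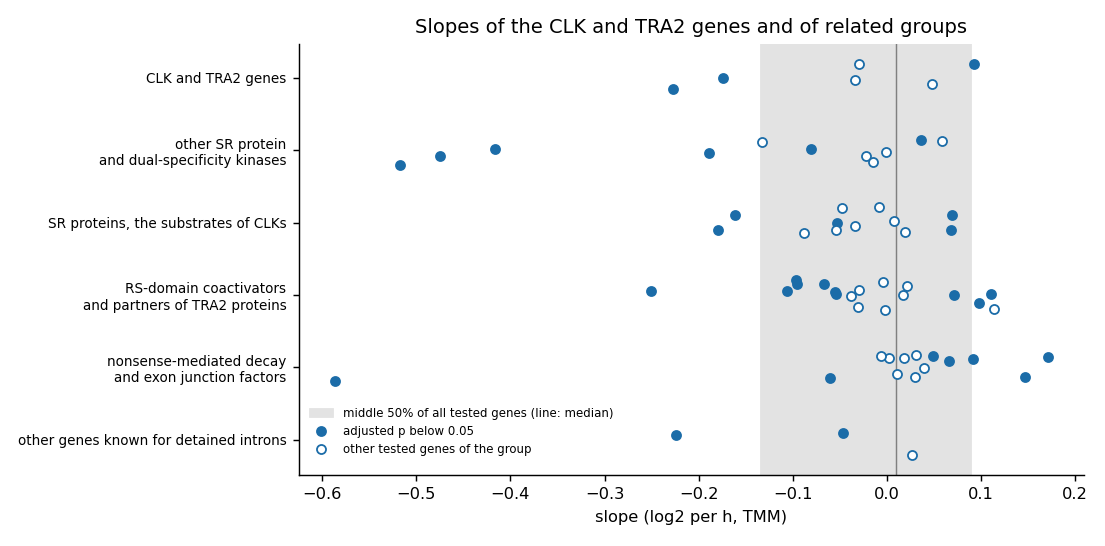
Slopes in log2 per hour (x axis, TMM) of the CLK and TRA2 genes and of 5 related groups, 1 point per tested gene, filled where the adjusted p was below 0.05 (edgeR); grey spans the middle 50% of all tested genes, from -0.13 to 0.089, around their median. CLK1 and CLK3 lie below and CLK2 just above the grey band, and the lowest points are SMG8, DYRK1A, DYRK3 and DYRK2.

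Among all tested genes, the slope of CLK3 was at percentile 16.4, that of CLK1 at 20.7, TRA2B at 39.7, CLK4 at 40.5, TRA2A at 61.5 and CLK2 at 76.3. For each gene, the genes with the most similar course were sought among the 8855 genes that averaged at least 100 counts, by the root mean square difference of log2 CPM relative to the 0 h mean over the 12 libraries. TRA2A had the closest match, PBK, with a difference of 0.029, followed by RDH11 (0.055) and ABCD3 (0.059). TRA2B was matched by BTF3L4 and RAB10 (0.057 each) and SREK1IP1 (0.061), and CLK3 by NFX1 (0.074), RAB11FIP5 (0.087) and ISG20L2 (0.087). The differences were larger for CLK2, with PDDC1 (0.10), TNS2 (0.11) and KIAA0895L (0.11), and for CLK4, with SNHG8 (0.12), MYBL1 (0.14) and ZNF652 (0.14). CLK1 had the least close matches, INO80D (0.15), ZNF655 (0.15) and NFXL1 (0.17). These libraries share replicate effects and depth, which enter the measure, and no paralogue was among the 3 nearest genes of another.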

How the data were processed

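RNA-Seq was performed on 12 libraries (4 times, 3 replicates). What the authors deposited is a table of whole-number read counts by gene symbol, without normalization. The submitters' processing notes name FastQC, STAR and hg19; the counter, its annotation, its use of strand and its treatment of shared reads are not given in the sources used here. All 12 columns matched a sample title, and 0 were left over. Totals were 9147018 to 11194705 counts, so that CLK4 rests on 95 to 151 counts per library and TRA2B on 2338 to 3831.

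Counts were fitted with edgeR 4.0.16 in R 4.3.3 (TMM, mean of at least 10 counts, glmQLFit and glmQLFTest, Benjamini-Hochberg adjustment over 12032 genes, threshold 0.05) with time as a number or as 4 groups. Half-lives in hours were computed as -1/slope. Alternatives were library totals, DESeq2 1.42.0 (size factors, Wald and likelihood ratio tests), scaling to GAPDH plus ACTB, other count filters, the replicate block, subsets of times and leaving out each replicate. Scripts were tested on simulated data. The replicate numbers come from the labels. Deviations from time means correlated at 0.300 to 0.612 in all 18 same-number pairs, so the numbers were taken to pair samples. In 36 other pairs the correlation was -0.403 to 0.0842. Deviations within a time sum to 0, so these lower values follow from the first and are no separate support. Paralogue ratios were tested with numpy 2.4.6.

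Sequences and coordinates come from GENCODE version 44 on GRCh38, matched by symbol (6 of 6); sequences were read from transcripts. Named were the 6 genes, MYC, GAPDH and ACTB, the markers, per list the 2 lowest and 2 highest slopes past the threshold with the same direction in all 3 replicates, and the 3 genes of most similar course. OGT, DYRK2, EDC3 and CLK2P1 were named outside this rule, after their values were seen. The genes and lists were chosen with earlier results of these data known.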

Additional observations from a re-analysis of the deposited data

How the results depend on the processing

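DESeq2 (size factors or tests) and the lower count filter changed no call of the 6 genes. Other scalings, the replicate block, subsets of times and leaving out replicates each changed some. In parentheses are shares, or for subsets of times and left-out replicates counts, of all tested genes. With library totals, 0 genes rose by slope (18.6%) or from 0 to 4 h (17.6%), 4 fell from 0 to 4 h (38.4%) and 2 from 1 to 2 h (15.8%). Relative to GAPDH plus ACTB, 5 fell by slope (64.2%), 4 from 0 to 4 h (63.3%), 1 from 0 to 1 h (4.46%) and 2 from 1 to 2 h (17.3%), and 0 rose by slope (0.931%), from 0 to 4 h (0.923%) or from 2 to 4 h (0.0748%). With the replicate block, 3 fell (34.8%) and 2 rose (36.2%) by slope, and as many did from 0 to 4 h (36% and 36.8%). With it, 2 rose from 2 to 4 h (25.3%), 2 fell from 0 to 1 h (10.5%) and 3 from 1 to 2 h (20.7%), and 3 departed from a line (17.2%). The block changed no other call and no direction. With 1, 2 and 4 h only, 1 fell (3371 of all tested genes) and 0 rose (3095) by slope. With 0, 1 and 2 h only, 3 fell (2318) and 0 rose (1109). Leaving out 1 replicate gave 0 to 1 rising by slope (2968 to 3329 of all tested genes) and 0 to 1 falling from 1 to 2 h (614 to 1315). From 2 to 4 h it gave 0 to 1 falling (1334 to 1956) and 0 to 1 rising (501 to 851). Subsets hold fewer samples, and the cause of these changes was not tested.

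Slopes changed sign for CLK2 (-0.046 relative to GAPDH plus ACTB, -0.0088 with 0, 1 and 2 h only), CLK4 (0.0024 without replicate 1, 0.077 with 1, 2 and 4 h only) and TRA2A (-0.089 relative to GAPDH plus ACTB). Relative to GAPDH plus ACTB, the change from 0 to 4 h was -0.13 for CLK2 and -0.36 for TRA2A, and TRA2A was at -0.11 from 0 to 1 h, -0.072 from 1 to 2 h and -0.18 from 2 to 4 h; from 2 to 4 h CLK1 was at -0.11 and CLK4 at -0.062. Values near 0 changed sign for TRA2A from 0 to 1 h (-0.00075 with library totals, -0.0038 with a mean of at least 100 counts, -0.0042 without replicate 1) and from 1 to 2 h (-0.0047 with library totals), CLK4 from 1 to 2 h (0.068 without replicate 1) and TRA2B from 2 to 4 h (0.0032 without replicate 3). Over the runs that left out 1 replicate, these results ranged from -0.050 to 0.0024 for the slope of CLK4, from -0.0042 to 0.016 for TRA2A from 0 to 1 h, from -0.096 to 0.068 for CLK4 from 1 to 2 h, and from -0.048 to 0.0032 for TRA2B from 2 to 4 h. The ratio slopes kept their direction in all alternatives, with CLK1 to CLK4 at -0.16 and no longer past the threshold with 1, 2 and 4 h only. Without a replicate block (100000 resamples), their adjusted permutation p-values were 0.0116, 4.80e-04 and 0.00871, in the order CLK1 to CLK4, CLK2 to CLK3 and TRA2A to TRA2B. Over all tested genes the block moved the calls from 0 to 1 h from 269 lower and 42 higher to 1261 and 744; without replicate 2 they were 1 and 0. From 1 to 2 h, 1504 lower and 452 higher became 2485 and 2048, and departures from a line rose from 325 to 2073. By slope, 3859 lower and 3694 higher became 7729 and 112 relative to GAPDH plus ACTB and, for higher, 2242 with library totals.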
